A study of Homo sapiens with 6 samples.

Results

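The genes of plasminogen activation and of tissue factor were followed in HK-2 cells, an immortalized epithelial line from the proximal tubule of the human kidney, with and without oxidized low-density lipoprotein (OX-LDL). These were 9 genes, SERPINE2, PLAT, PLAU, PLAUR, ANXA2, S100A10, F3, TFPI and TFPI2. Each was found by its gene symbol in 1 row of a table of 58825 genes. The Control group was 3 libraries of untreated HK-2 cells, and the OX-LDL group was 3 libraries of HK-2 cells treated over 48 h with OX-LDL at 25 μg/ml. By the methods of the study, HK-2 cultures were kept in low-serum medium before OX-LDL was added. No vehicle or native LDL was given for Control in the sources used here, and HK-2 is a single line, so the comparison is that of OX-LDL-treated with untreated cells of 1 line. The labels do not say that the libraries came from separate cultures, so p-values measure the spread between these libraries, which may be technical.

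Plasmin is the protease that dissolves fibrin, and it also cleaves matrix proteins and activates other proteases. It is cut from plasminogen by either of 2 activators, urokinase (PLAU), which acts on the cell surface once bound to its receptor (PLAUR), and the tissue-type activator (PLAT). Annexin A2 (ANXA2) and its partner S100A10 form a complex on the cell surface that binds plasminogen and brings it next to its activators, whereas serpins such as SERPINE2, also known as protease nexin-1, inhibit the activators, plasmin and thrombin. Tissue factor (F3) is the membrane receptor of factor VII and starts the coagulation cascade, and tissue factor pathway inhibitor (TFPI) blocks it. TFPI2, a relative of TFPI with the same kind of Kunitz domains, is secreted to the matrix and mainly inhibits plasmin and trypsin. The kidney tubule is a known source of urokinase, and urokinase receptor, plasminogen activators and tissue factor are studied in injury and fibrosis of the kidney.

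The total count lay between 62561347 and 76797607 per library. About 4 deposited counts were worth 1 read pair, since counts of exactly 4, 8 and 12 occurred 3.26, 2.95 and 2.13 times as often as the counts next to them. A gene was taken as not detected at 12 counts or fewer in every library, and such limits cover counting error only. The first principal component, with 34.8% of the variance, separated OX-LDL from Control, and OX-LDL replicate 2 stood apart from the other libraries on the second, with 17.7%. Of markers of the proximal tubule, PAX8 and GGT1 were present, while LRP2, which was at 0 counts, CUBN, SLC34A1, AQP1 and ANPEP, and the epithelial cadherin CDH1, were at no more than 0.144 FPKM in any library, FPKM being the count scaled by the authors for gene length and library size. GGT1 has 2 entries that overlap in position and went in opposite directions. Their means were 8.41 and 13.6 FPKM in Control and 16.6 and 0.0327 FPKM in OX-LDL. Among Control libraries they ranged from 3.13 to 18.2 and from 0.0518 to 22.6 FPKM, so the level of GGT1 is uncertain. The 4 endothelial markers summed to at most 0.122 FPKM in any library. The leukocyte list summed to 3.14 to 7.74 FPKM in Control and 9.16 to 14.0 FPKM in OX-LDL, nearly all of it CD68, a lysosomal protein, with PTPRC and LYZ not detected. The fibroblast list reached at most 14.1 FPKM in any library, nearly all of it LUM, with DCN at 0 counts. The summed epithelial list was 120 to 145 FPKM in Control and 174 to 224 FPKM in OX-LDL, and the proximal tubule list 59.2 to 76.4 and 32.6 to 42.0 FPKM. The epithelial rise lay in the keratins. Mean FPKM in Control and OX-LDL was 37.5 and 65.4 for KRT8, 39.4 and 58.3 for KRT18 and 5.47 and 20.6 for KRT19. For EPCAM it was 51.2 and 53.1. KRT8 and KRT19 passed the edgeR test, while KRT18 (adjusted p = 0.123) and EPCAM (0.580) did not. The proximal tubule sum was nearly all PAX8 and the 2 GGT1 entries. PAX8 itself was lower in every OX-LDL library (16.3 to 24.2 FPKM) than in any Control library (32.6 to 58.0 FPKM). It passed the edgeR test, with a log2 fold change of -1.23 (adjusted p = 0.0182). The part of these differences in the results was not tested, and in bulk RNA fewer cells of a kind and less RNA per cell cannot be told apart.

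S100A10 and ANXA2, whose products form a complex, the urokinase receptor and tissue factor were higher after OX-LDL, while both activators and both tissue factor pathway inhibitors did not pass the test. S100A10, PLAUR, F3 and ANXA2 rose, by 1.81, 2.12, 2.02 and 1.45 times. SERPINE2 and PLAT had fitted folds of 1.22 and 1.38 without passing the test, and those of PLAU, TFPI and TFPI2 were 1.07, 1.10 and 1.11. All 9 genes reached a mean of 0.1 FPKM and were tested, among 19510 genes in all, with edgeR's quasi-likelihood test on the counts, with Benjamini-Hochberg adjustment across the whole table. Of the 9 genes, 4 were higher with an adjusted p-value under 0.05 and none was lower, where 15.3% of all genes tested passed in either direction, 7.91% higher and 7.42% lower. The same 4 genes passed without OX-LDL replicate 2, the library that stood apart, and 1 to 2 of them without any other single library. Without adjustment, 6 of the 9 had a p-value under 0.05, where 30.4% of all genes did. The median log2 fold change (OX-LDL over Control) of all 9 genes was 0.47, and that of all genes tested was -0.0043. The 3 OX-LDL libraries lay above all 3 Control libraries in FPKM for 6 of the 9 genes, where the same held for 16.8% of all genes tested. A limit of a fold over 2, or under 0.5, at an unadjusted p-value under 0.05 was also applied. PLAUR and F3 passed it, 2 of 9, where 6.36% of all genes did in either direction and 3.19% upwards.

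**Figure D1:**
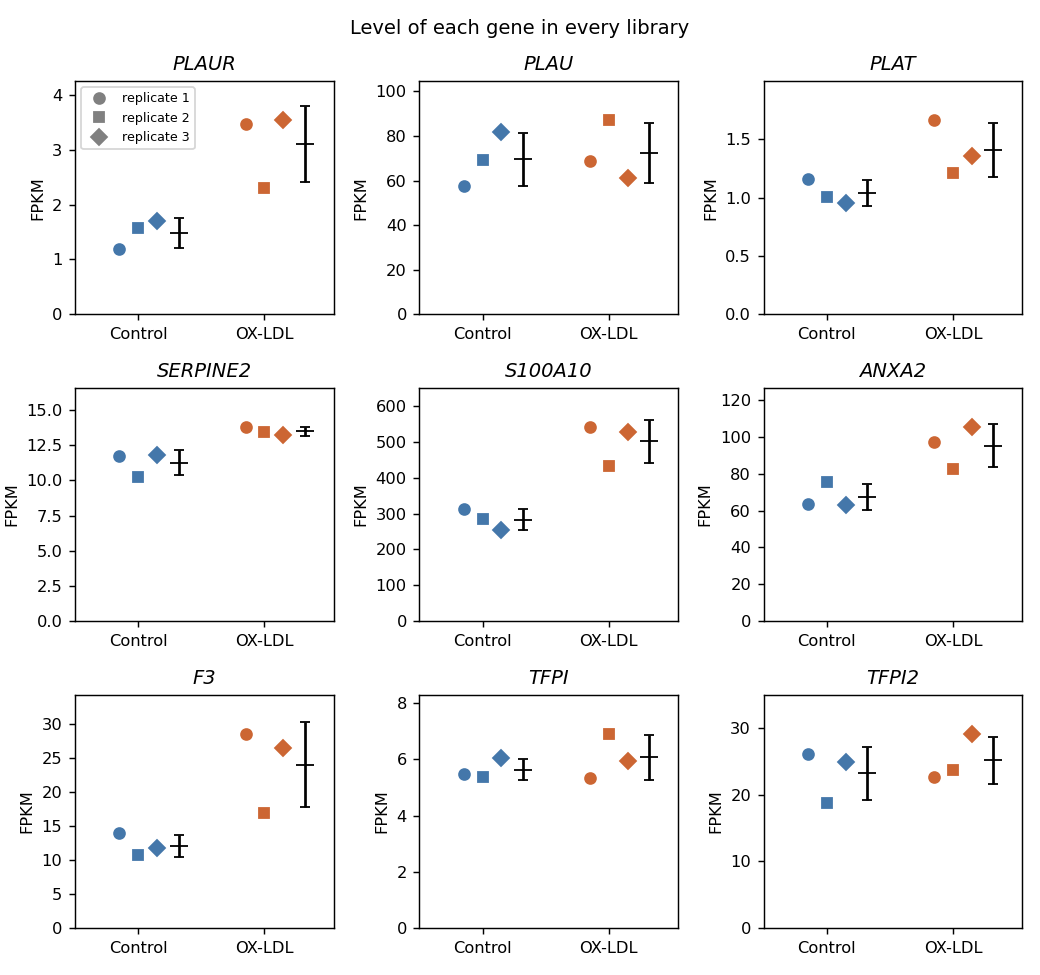
FPKM of each of the 9 genes (vertical axes, from 0) in the 3 Control and 3 OX-LDL libraries, with the mean and SD of each group as a black bar. The OX-LDL points of PLAUR, PLAT, SERPINE2, S100A10, ANXA2 and F3 all lie above the Control points, and OX-LDL replicate 2 (square) is the lowest OX-LDL point of PLAUR, PLAT, S100A10, ANXA2 and F3.

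The urokinase receptor gene PLAUR (ENSG00000011422; GRCh38 chromosome 19, 43646095 to 43670169) had 1.18, 1.58 and 1.71 FPKM in Control and 3.47, 2.31 and 3.55 FPKM in OX-LDL. The groups did not overlap, and OX-LDL replicate 2 was the nearest to Control. The means were 1.49 ± 0.274 and 3.11 ± 0.690 FPKM (SD, n = 3 per group). The log2 fold change was 1.09 (standard error 0.22, 95% interval 0.57 to 1.60), with an edgeR adjusted p-value of 0.0203. Leaving out any 1 of Control replicates 1 and 2 and OX-LDL replicates 1 and 3 brought the adjusted p-value to between 0.0573 and 0.0740, and without Control replicate 1 or OX-LDL replicate 3 the log2 fold change, 0.95 and 0.98, was inside the fold limit. PLAUR had the highest fold of the 9 genes and, next to PLAT, the lowest level.

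PLAU (ENSG00000122861; chromosome 10, 73909177 to 73917494), the ligand of that receptor, was the most abundant plasminogen activator transcript. It had 57.7, 69.0 and 81.7 FPKM in Control and 68.9, 87.2 and 61.0 FPKM in OX-LDL. The groups overlapped, and the highest library was the OX-LDL replicate 2 that was lowest for PLAUR among the treated libraries. Its log2 fold change was 0.09 (standard error 0.17, edgeR adjusted p = 0.764), with a 95% interval of -0.31 to 0.49, so that a rise or fall of the size seen for PLAUR lies outside the interval. The direction turned when Control replicate 1 (-0.02) or OX-LDL replicate 2 (-0.065) was left out. The gene C10orf55 on the other strand overlaps PLAU and held 0.464% as many counts.

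PLAT (ENSG00000104368), the tissue-type activator, had the lowest level of the 9 genes. Its values were 1.16, 1.01 and 0.953 FPKM in Control and 1.67, 1.21 and 1.36 FPKM in OX-LDL. Each OX-LDL library was above each Control library, with 1.21 FPKM in OX-LDL replicate 2 close to 1.16 FPKM in Control replicate 1. The log2 fold change was 0.47 (standard error 0.17, 95% interval 0.07 to 0.87), and the adjusted p-value was 0.112 in edgeR's test. DESeq2 gave 0.0461, the only adjusted p-value under 0.05 among 15 alternatives. PLAT rested on 516 to 818 counts per library.

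SERPINE2 (ENSG00000135919; chromosome 2, 223975045 to 224039290) is the serpin among the 9 genes. It had 11.7, 10.3 and 11.8 FPKM in Control and 13.8, 13.4 and 13.2 FPKM in OX-LDL. Each OX-LDL library was above each Control library. Its log2 fold change was 0.29 (standard error 0.08, 95% interval 0.09 to 0.49). The adjusted p-value was 0.0593 in edgeR's test. It was under 0.05 in 2 of 15 alternatives, DESeq2 (0.0271) and edgeR with a minimum mean of 1 FPKM (0.0360). When any 1 library was left out, it lay between 0.0857 and 0.146 in edgeR's test.

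S100A10 (ENSG00000197747; chromosome 1, 151982915 to 151993859) had the smallest p-value of the 9 genes. It had 312, 284 and 255 FPKM in Control and 543, 434 and 529 FPKM in OX-LDL, with means of 284 ± 28.3 and 502 ± 59.4 FPKM (SD, n = 3 per group). The groups were far apart, and OX-LDL replicate 2 was again the lowest treated library. Its log2 fold change was 0.85 (standard error 0.12, 95% interval 0.58 to 1.13) with an edgeR adjusted p-value of 0.00668, and by p-value it ranked 474 of 19510 genes. The adjusted p-value stayed under 0.05 under each of 15 alternatives, and the log2 fold change stayed between 0.78 and 0.95. S100A10 was among the most abundant transcripts of these cells, at rank 57 of the genes tested in Control and rank 37 in OX-LDL.

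ANXA2 (ENSG00000182718; chromosome 15, 60347134 to 60402883), which encodes the partner of S100A10, had 63.7, 75.4 and 63.1 FPKM in Control. In OX-LDL it had 97.6, 82.7 and 106 FPKM. The groups did not overlap, but Control replicate 2 and OX-LDL replicate 2 were near each other. The log2 fold change was 0.53 (standard error 0.11, 95% interval 0.27 to 0.79, edgeR adjusted p = 0.0227). When any 1 of Control replicates 1 and 3 and OX-LDL replicates 1 and 3 was left out, the adjusted p-value lay between 0.0687 and 0.0778. ANXA2 has processed pseudogenes, intronless copies of its mRNA, among which the counting could have split reads. ANXA2P2 (ENSG00000231991; chromosome 9, 33624274 to 33625293) had 45.7, 44.3 and 44.1 FPKM in Control and 71.8, 67.7 and 67.0 FPKM in OX-LDL, and its log2 fold change was 0.65 (standard error 0.07, edgeR adjusted p = 0.00295). The levels of both ANXA2 and ANXA2P2 are therefore uncertain. ANXA2P1 had at most 34 counts and ANXA2P3 at most 4 in any library. With the counts of ANXA2 and ANXA2P2 added together, an alternative chosen after seeing the data, the log2 fold change of ANXA2 was 0.54 with an edgeR adjusted p-value of 0.0184.

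**Figure D2:**
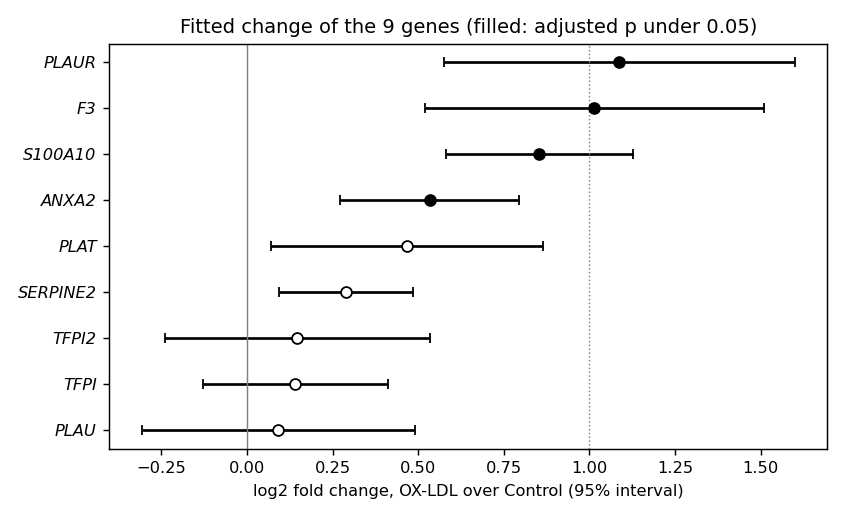
Fitted log2 fold change of each of the 9 genes (horizontal axis, OX-LDL over Control) with its 95% interval, filled where the adjusted p-value was under 0.05. PLAUR (1.09), F3 (1.01), S100A10 (0.85) and ANXA2 (0.53) are filled, the intervals of PLAU, TFPI and TFPI2 include 0, and the dotted line marks a fold change of 2.

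The tissue factor gene F3 (ENSG00000117525; chromosome 1, 94529173 to 94541759) had 13.9, 10.7 and 11.7 FPKM in Control and 28.6, 16.9 and 26.4 FPKM in OX-LDL. All OX-LDL libraries were above Control, and OX-LDL replicate 2 was far below the other 2 treated libraries. The means were 12.1 ± 1.61 and 24.0 ± 6.23 FPKM (SD, n = 3 per group), and the log2 fold change was 1.01 (standard error 0.21, 95% interval 0.52 to 1.51) with an edgeR adjusted p-value of 0.0223. Without OX-LDL replicate 2, the log2 fold change was 1.21 and the adjusted p-value 0.00662. Leaving out any 1 of Control replicates 2 and 3 and OX-LDL replicates 1 and 3 brought the adjusted p-value to between 0.0670 and 0.0837 and the log2 fold change to between 0.88 and 0.99, which is inside the fold limit. F3 moved from rank 3291 to rank 1560 by level among the genes tested.

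TFPI (ENSG00000003436; chromosome 2, 187464230 to 187554492), the inhibitor of tissue factor, had 5.47, 5.36 and 6.06 FPKM in Control and 5.35, 6.92 and 5.95 FPKM in OX-LDL. The groups overlapped, with the lowest value of all 6 libraries in OX-LDL replicate 1. Its log2 fold change was 0.14 (95% interval -0.13 to 0.41, edgeR adjusted p = 0.464). TFPI2 (ENSG00000105825; chromosome 7, 93885396 to 93890753) had 26.1, 18.7 and 24.9 FPKM in Control and 22.6, 23.8 and 29.2 FPKM in OX-LDL. Here too the groups overlapped, and Control replicate 2 was the lowest. The log2 fold change of TFPI2 was 0.15 (95% interval -0.24 to 0.53, edgeR adjusted p = 0.603). Neither interval reaches the fitted log2 fold change of F3 (1.01), but the 95% interval of F3 itself, 0.52 to 1.51, slightly overlaps that of TFPI2. Both genes overlap a gene on the other strand that held less than 0.5% as many counts (0.484% for TFPI and 0.0263% for TFPI2).

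The ratio of 2 genes within a library does not depend on how libraries are scaled against each other. Its size does depend on the gene lengths used for FPKM, although its difference between groups hardly does. Which of 2 genes is higher can therefore change on another length scale, as given below for S100A10 and ANXA2. The ratio of F3 to TFPI was 2.54, 2.00 and 1.93 in Control and 5.34, 2.44 and 4.44 in OX-LDL, so that the groups overlapped through OX-LDL replicate 2. For F3 to TFPI2 the ratio was 0.531, 0.574 and 0.470 in Control and 1.26, 0.709 and 0.905 in OX-LDL, higher in each of the 3 OX-LDL libraries. PLAUR to PLAU was likewise higher in each OX-LDL library, with 0.0205, 0.0229 and 0.0209 in Control and 0.0503, 0.0265 and 0.0581 in OX-LDL. S100A10 to ANXA2 was 4.90, 3.77 and 4.04 in Control and 5.56, 5.24 and 5.01 in OX-LDL. The mean difference of this ratio was 0.32 on the log2 scale. It is limited by the reads of ANXA2, which could have been split with ANXA2P2. The ratio of PLAU to PLAT fell between 41.3 and 85.8 and that of SERPINE2 to PLAU between 0.144 and 0.217, with overlapping groups. In a two-sided exact permutation test of the log2 ratios, F3 to TFPI2, PLAUR to PLAU and S100A10 to ANXA2 each had a p-value of 0.1, the smallest that 3 libraries against 3 can give, and 0.2 after adjustment over the 6 ratios. The other ratios had exact permutation p-values of 0.2 for F3 to TFPI and 0.3 for both others (0.3 adjusted for each).

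**Figure D3:**
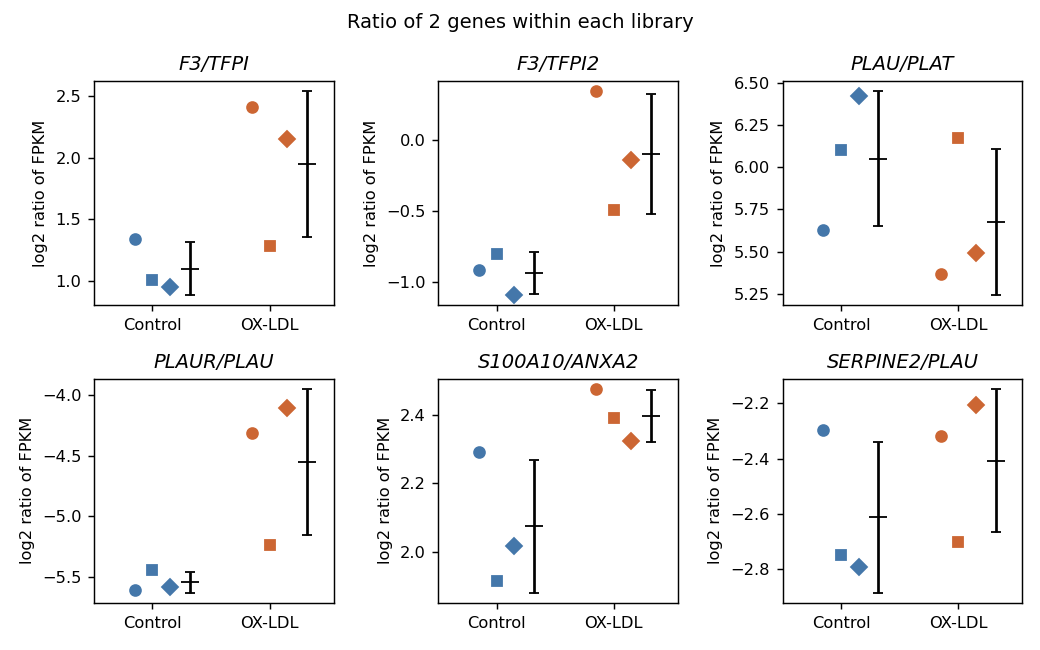
Log2 ratio of the FPKM of 2 genes within each library (vertical axes) in Control and OX-LDL, with the mean and SD of each group as a black bar. The groups are separate for F3/TFPI2, PLAUR/PLAU and S100A10/ANXA2 and overlap for the other 3 ratios.

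In order of FPKM, Control ran from S100A10 (284) through PLAU (69.5), ANXA2 (67.4), TFPI2 (23.2), F3 (12.1), SERPINE2 (11.3), TFPI (5.63) and PLAUR (1.49) to PLAT (1.04). Neighbours in this order were separate in every library except PLAU and ANXA2, and F3 and SERPINE2. In OX-LDL the order was S100A10 (502), ANXA2 (95.3), PLAU (72.4), TFPI2 (25.2), F3 (24.0), SERPINE2 (13.5), TFPI (6.07), PLAUR (3.11) and PLAT (1.41). There, ANXA2 and PLAU overlapped, as did TFPI2 and F3. The FPKM of a gene depends on the length it was divided by. The count and FPKM of ANXA2 imply a length of 10412 bases on the scale of the total count, while its longest coding transcript in GENCODE release 29 has 1676 bases, and for S100A10 the lengths are 1194 and 1202 bases. Per kilobase of longest coding transcript and scaled to the library total, ANXA2 had 418 ± 43.4 in Control and 592 ± 71.6 in OX-LDL (SD, n = 3 per group). S100A10 had 281 ± 28.8 and 499 ± 58.5 on that scale, so ANXA2 came first in Control, and the libraries of both genes overlapped in OX-LDL. PLAU, with 90.7 ± 15.5 and 94.8 ± 17.7, was then below ANXA2 in each library of both groups. SERPINE2, with 46.3 ± 3.51 and 55.5 ± 1.24, was above TFPI2 (27.4 ± 4.67 and 29.7 ± 4.14) and F3 in each library, where by mean FPKM it came after both. F3 then had 18.0 ± 2.42 in Control, overlapping TFPI, whose libraries lay between 19.1 and 21.5, and 35.7 ± 9.24 in OX-LDL, above TFPI with 21.6 ± 2.85 in each library.

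**Figure D4:**
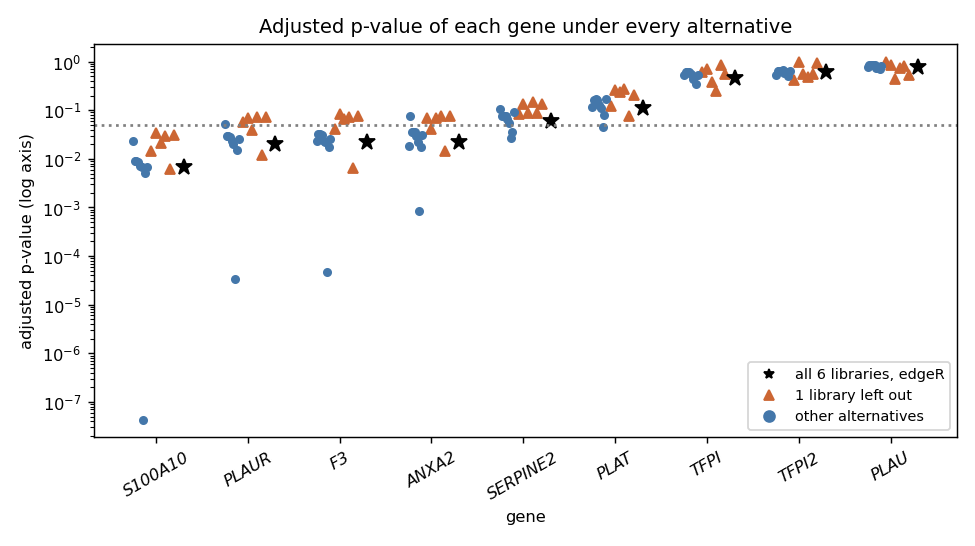
Adjusted p-value of each gene (vertical axis, log scale) with all 6 libraries in edgeR (star), with 1 library left out (triangles) and under the other alternatives (circles), with a dotted line at 0.05. S100A10 is under the line throughout, PLAUR, F3 and ANXA2 are on both sides of it, and TFPI, TFPI2 and PLAU are above it throughout.

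Promoters of these genes are shown because 4 of the genes rose and their upstream sequences can be set side by side. The 250 bases upstream of the transcription start were taken from RefSeq (GRCh38.p14), in the direction of the gene, for 8 of the 9 genes, all but PLAT, with 2 starts each for PLAU and SERPINE2. Capitals mark TGANTCA, the site of AP-1 transcription factors, which reads the same on both strands. F3 (chr1:94541760-94542009), PLAUR (chr19:43670170-43670419), ANXA2 (chr15:60397987-60398236), TFPI2 (chr7:93890754-93891003) and S100A10 (chr1:151993860-151994109), all on the minus strand, read from 5′ to 3′:
F3: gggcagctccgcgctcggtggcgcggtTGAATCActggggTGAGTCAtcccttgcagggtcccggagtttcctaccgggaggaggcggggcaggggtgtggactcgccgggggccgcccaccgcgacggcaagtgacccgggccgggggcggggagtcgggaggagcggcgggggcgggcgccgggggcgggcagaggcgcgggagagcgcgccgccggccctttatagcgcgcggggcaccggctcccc
PLAUR: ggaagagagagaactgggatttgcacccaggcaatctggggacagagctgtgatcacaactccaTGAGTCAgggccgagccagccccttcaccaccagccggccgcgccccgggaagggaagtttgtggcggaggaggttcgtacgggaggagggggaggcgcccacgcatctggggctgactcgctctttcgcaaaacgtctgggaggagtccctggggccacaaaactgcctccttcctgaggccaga
ANXA2: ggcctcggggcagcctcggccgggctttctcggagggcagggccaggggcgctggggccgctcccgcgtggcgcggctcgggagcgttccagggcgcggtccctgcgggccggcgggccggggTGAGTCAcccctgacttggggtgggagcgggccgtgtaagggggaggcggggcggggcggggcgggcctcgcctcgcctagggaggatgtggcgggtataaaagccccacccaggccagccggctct
TFPI2: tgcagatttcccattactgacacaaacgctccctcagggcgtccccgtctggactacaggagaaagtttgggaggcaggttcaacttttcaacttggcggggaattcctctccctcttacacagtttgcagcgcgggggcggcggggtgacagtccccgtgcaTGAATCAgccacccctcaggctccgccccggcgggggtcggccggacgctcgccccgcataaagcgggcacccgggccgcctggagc
S100A10: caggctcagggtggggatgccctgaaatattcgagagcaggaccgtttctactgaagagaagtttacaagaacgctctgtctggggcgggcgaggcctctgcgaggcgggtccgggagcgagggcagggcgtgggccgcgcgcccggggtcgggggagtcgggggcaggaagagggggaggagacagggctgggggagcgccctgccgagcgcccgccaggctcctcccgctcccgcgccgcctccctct
F3 held 2 matches, at 223 to 217 and at 210 to 204 bases before the start. PLAUR held 1 at 186 to 180 bases, ANXA2 1 at 127 to 121 bases and TFPI2 1 at 87 to 81 bases. Thus 3 of the 4 genes that rose held the motif, as did TFPI2, which did not pass the test, while S100A10, the gene with the smallest p-value, held none. The windows of PLAU, SERPINE2 and TFPI held none either. Counted by window, 4 of the 10 windows of these genes held it, where 6.57% of 35116 RefSeq promoter windows of the same length did. No test compared these shares, and the genes were chosen with earlier results of these data known. Whether the motif had a part in the rise was not tested. The GC box GGGCGG, searched on both strands, was found in 42.6% of all windows and in those of F3, S100A10, ANXA2, TFPI2, SERPINE2 and PLAU. The TATAAA sequence (6.80% of all windows, searched on the gene's strand) was found in ANXA2 only among the 8 genes, CACGTG (6.34%) in SERPINE2 only, and TGACGTCA (1.65%) in none, the last 2 reading the same on both strands. A match is a run of letters and says nothing on whether a factor was bound.

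The substrates and partners outside the 9 genes were read from lists of 13 further genes of the plasminogen system, 22 of the coagulation cascade and 9 receptors. Plasminogen (PLG) and factor VII (F7), the substrate of the activators and the ligand of tissue factor, had 0 counts in every library. In the plasminogen system list, 5 of 13 genes could be tested, 2 rose and none fell, with a median log2 fold change of 0.43, where 15.3% of all genes tested passed, 7.91% higher and 7.42% lower. The glycolytic enzyme ENO1, which also serves as a plasminogen receptor on the cell surface, rose to 558 ± 15.6 FPKM, against 312 ± 38.4 FPKM in Control (SD, n = 3 per group, log2 fold change 0.87, edgeR adjusted p = 0.00399). SERPINI1 (neuroserpin, an inhibitor of PLAT) also rose, from 0.168 ± 0.109 to 0.941 ± 0.409 FPKM with an edgeR adjusted p-value of 0.0305, and was chosen for naming after its values were seen. It rested on few read pairs in Control, with 32, 64 and 15 counts, against 243, 120 and 207 counts in OX-LDL. Its adjusted p-value was between 0.0603 and 0.0947 when any 1 of Control replicates 1 and 3 and OX-LDL replicates 1 and 3 was left out. The plasminogen receptor PLGRKT did not pass the test, with overlapping groups and a log2 fold change of 0.19 (95% interval -0.51 to 0.90, edgeR adjusted p = 0.719).

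In the coagulation cascade list, 11 of 22 genes could be tested, 2 rose and none fell, with a median log2 fold change of 0.26, against the same shares of all genes, and 8 genes were not detected. FGB, the beta chain of fibrinogen, rose to 11.6 ± 3.05 FPKM, against 2.41 ± 0.360 FPKM in Control (SD, n = 3 per group, log2 fold change 2.30, edgeR adjusted p = 0.00229). The other fibrinogen chains, FGA and FGG, had at most 0.400 and 0.263 FPKM in any library. PROCR, the endothelial protein C receptor, rose to 15.5 ± 1.49 FPKM, against 10.3 ± 0.321 FPKM in Control, and its log2 fold change was 0.61 (edgeR adjusted p = 0.0123, 0.0515 without Control replicate 2). Of the 9 receptors, 7 could be tested, none rose and 1 fell, a share near the 15.3% of all genes tested that passed, and the median log2 fold change was -0.13. MRC2, a collagen receptor that associates with the urokinase receptor, fell from 12.1 ± 0.753 to 8.25 ± 1.36 FPKM (log2 fold change -0.52, edgeR adjusted p = 0.0373), and its adjusted p-value was between 0.0624 and 0.122 when any library but OX-LDL replicate 2 was left out. The protease-activated receptors F2R and F2RL1, which thrombin and the complex of tissue factor with factor VII cleave, had log2 fold changes of -0.14 (95% interval -0.43 to 0.16) and -0.13 (95% interval -0.36 to 0.11). PLGRKT, FGA, FGG, F2R and F2RL1 were named here after their values were seen.

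**Figure D5:**
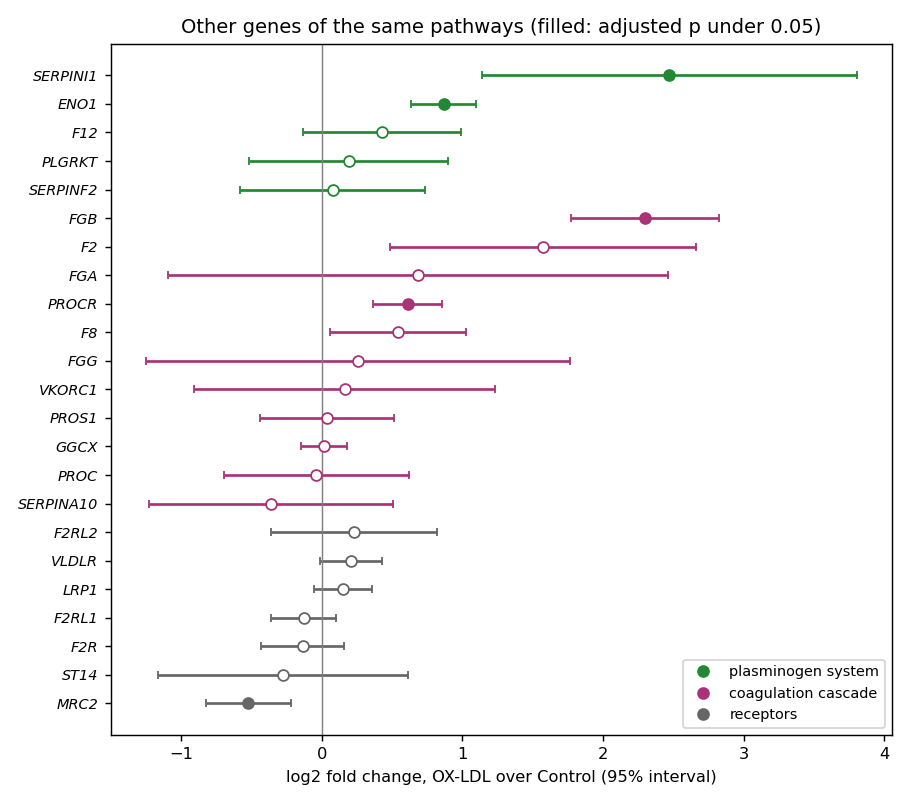
Fitted log2 fold change (horizontal axis, OX-LDL over Control) with its 95% interval for the tested genes of 3 further lists, filled where the adjusted p-value was under 0.05. SERPINI1, ENO1, FGB and PROCR are filled to the right of 0 and MRC2 to the left.

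The genes whose pattern over the 6 libraries was most like that of S100A10, among 12258 other genes whose mean was 1 FPKM or more, were ARHGAP29, FGFR2, CEBPZOS, CEP97 and OIP5. Pearson's correlation of their log2 normalized counts with those of S100A10 lay between 0.997 and 0.999. The 6 points fall into the 2 groups and share their libraries, so these values mostly describe the common difference between groups. All 5 genes were higher in OX-LDL, with log2 fold changes of 0.50, 1.40, 0.36, 0.62 and 0.49.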

How the data were processed

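Poly(A) RNA of 6 libraries of HK-2 cells was sequenced as read pairs. The submitters' processing notes name cutadapt 1.9, HISAT2 2.0.4, StringTie 1.3.4d, edgeR, DESeq2 and the GRCh38 build, without giving the role of each. The authors deposited 1 table that holds, for each gene and library, an estimated count, a whole number not scaled for library size, and an FPKM value scaled by the authors by gene length and library size. A count of 0 is listed at 0.0001 FPKM. The implied length was the same in all libraries, within 3%, for 99.8% of the 12865 genes with at least 100 counts in every library. GENCODE release 29 has 58552 of the identifiers, 81.2% of them at the same coordinates. Whether counting used the strand is not given in the sources used here.

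Samples were grouped by their titles. The main test was edgeR (version 4.0.16, R version 4.3.3), with TMM factors, glmQLFit and glmQLFTest on the counts, with the group as the only term, over the 19510 genes whose mean reached 0.1 FPKM. The standard error of a log2 fold change was taken as its size over the square root of F. Within groups, the chi-square per gene between any pair of libraries was 15.7 to 27.3, so no pair held the same values. This does not show that the libraries were separate cultures. Simulated data of this comparison had 19510 genes, 200 of them changed. There, edgeR recovered 44% of the genes changed 2-fold and 81% of those changed 4-fold, with 10 false calls among 135 calls. DESeq2 recovered 72% and 90%, with 97 false calls among 259 calls, so its calls are less strict than those of edgeR. In the data, 15.3% of the genes tested passed, a larger share than was changed in the simulation, so these recovery values may not hold for them. Alternatives were DESeq2 (version 1.42.0), limma (version 3.58.1) on log2(FPKM + 0.1), + 1 and + 0.01, other normalization, other minimum levels, the replicate number as a block, and fits without each library in turn. The members, lists and named genes were chosen with earlier results of these data known. Named beside the 9 genes were PLG, F7, at most 5 genes of each further list with an adjusted p-value under 0.05 and a mean of at least 1 FPKM, the copies of ANXA2 and the 5 genes most like S100A10. Some genes of the further lists are not reported here. MRC2 has another name in the table and was matched by its identifier.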

Additional observations from a re-analysis of the deposited data

How the results depend on the processing

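The 4 genes called among the 9 numbered between 1 and 4 when 1 library was left out. They numbered 4 to 6 under the other alternatives without a block, with 6 in DESeq2. The 2 genes past the fold limit became 1 with total counts only and in limma on log2(FPKM + 0.1) and log2(FPKM + 0.01), 0 in limma on log2(FPKM + 1), and 0 to 2 when 1 library was left out. The 5 further pathway genes called numbered 3 to 6 when 1 library was left out and 6 in DESeq2. Fits without 1 library have fewer samples, and over all genes they called 1161 (without Control replicate 2) to 2943 genes (without OX-LDL replicate 2), where all 6 libraries gave 2991 and DESeq2 4430. The deviations of same-numbered libraries from their group means correlated by -0.041, -0.0031 and 0.036, so no shared effect of the replicate number was seen over all genes. This cannot show whether same-numbered libraries were set up together, which the labels do not say. With the replicate number as a block, 2 of the 9 genes (S100A10 and F3) and 3 further pathway genes were called, 1 gene passed the fold limit, and 1636 genes were called in all. PLAU changed direction without Control replicate 1 (log2 fold change -0.02) and without OX-LDL replicate 2 (-0.065), and ranged from -0.065 to 0.23 over the fits without 1 library. Leaving out 1 library, the difference of the log2 ratio ranged from 0.62 to 1.19 for F3 to TFPI, 0.62 to 1.03 for F3 to TFPI2, -0.62 to -0.19 for PLAU to PLAT, 0.77 to 1.34 for PLAUR to PLAU, 0.24 to 0.43 for S100A10 to ANXA2 and 0.10 to 0.36 for SERPINE2 to PLAU. Among the 9 genes, the depth limits PLAT and PLAUR most, with 516 and 467 counts in their lowest libraries.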
